A study of Mus musculus with 9 samples.

Results

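The genes described here encode the insulin receptor (Insr), the insulin receptor substrates Irs1, Irs2 and Irs3, the PI3-kinase subunits Pik3r1 and Pik3ca, the kinases Akt1 and Akt2, and the insulin-responsive glucose transporter GLUT4 (Slc2a4). They were taken by gene symbol, 9 of the 19094 genes listed in at least 1 sample, and all 9 were found and passed the filter on low counts. RNA was sequenced from 3T3-L1, a mouse preadipocyte line that turns into fat cells under a hormone cocktail, at days 0, 4 and 8 of differentiation with 3 samples each. Day 0 cells had grown to near confluence in complete medium and had not yet received the cocktail. Day 4 cells had received induction medium with dexamethasone, IBMX (a phosphodiesterase inhibitor) and insulin, followed by maintenance medium with insulin, and day 8 cells stayed longer in maintenance medium. Every day 4 and day 8 sample had therefore been exposed to added insulin and no day 0 sample had, so that exposure to the media and time of differentiation cannot be told apart. All samples come from 1 cell line, no undifferentiated culture of matching age was analysed here, and cells were pooled within a stage before RNA was extracted. The labels do not say that replicates were separate cultures, so p-values measure the spread between these samples, which may be technical. The total per sample lay between 18216114 (day 0, replicate 2) and 20452144 expected counts, with a median of 20182731.

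Insulin binds its receptor, a tyrosine kinase at the cell surface, which phosphorylates IRS proteins. Phosphorylated IRS proteins recruit PI3-kinase through its regulatory subunit, and the lipid made by the catalytic subunit brings Akt to the membrane to be activated. In fat and muscle cells active Akt lets vesicles that carry GLUT4 reach the cell surface, where the transporter takes up glucose. RNA abundance, measured here, says nothing of phosphorylation or of where GLUT4 protein lies.

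The labelled cell type was checked against marker genes. The 10 adipocyte markers summed to 145.9 ± 2.82, 7442 ± 1340 and 9670 ± 452 FPKM at days 0, 4 and 8 (SD, n = 3), where FPKM counts fragments relative to transcript length and to library size. The 8 preadipocyte or fibroblast markers summed to 5721 ± 235, 3459 ± 211 and 5873 ± 54.5 FPKM, with the collagen gene Col1a2 the most abundant. Of these 8, 7 fell in the early phase, where 33.7% of all genes tested fell. Dlk1 (-2.13 ± 0.06 on the log2 scale), Fn1 (-2.53 ± 0.10) and Gata2 (-2.42 ± 0.10) were down by over 2-fold. In the late phase 7 rose and 1 fell, where 22.5% and 22.7% of all genes did. Over the whole process 4 rose and 3 fell, where 34.8% and 36.2% of all genes did. The extraction text in the labels names ganglia, but the 8 sensory neuron markers summed to at most 1.63 FPKM in any sample, 7 of them were under 0.5 FPKM in every sample, and Snap25 was the most abundant. Of the other tissues that use this pathway, 6 skeletal muscle markers summed to 4.67 ± 0.0757, 5.25 ± 0.419 and 10.1 ± 0.890 FPKM. Des was the most abundant of these and Myod1, a factor that defines muscle cells, was not listed in any sample. Macrophage markers (6 genes) summed to 7.85 ± 0.973, 5.24 ± 0.419 and 5.47 ± 0.351 FPKM, led by Cd14, and 5 endothelial markers to under 1.1 FPKM, led by Vwf. In these bulk samples a smaller share of cells of a type and less RNA per cell cannot be told apart.

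Slc2a4 moved far more than any other of the 9 genes, apart from the very rare Irs3, between day 0 and either later day, Pik3r1 peaked at day 4, and none of Insr, Irs1, Pik3ca and Akt1 differed by more than 1.23-fold in any comparison. In the early phase (day 4 against day 0) 7 of the 9 genes passed edgeR's quasi-likelihood test at an adjusted p under 0.05, 6 higher and 1 lower, where 69.2% of the 13154 genes tested passed. The late phase (day 8 against day 4) had 5 that passed, 4 higher and 1 lower, against 45.3% of all genes. Over the whole process (day 8 against day 0) 7 passed, 6 higher and 1 lower, against 71% of all genes. The shares that passed are thus near those of all genes in each comparison. Changes over 2-fold were fewer: 3 of 9 in the early phase, all higher, where 17.8% of all genes passed that limit as well, 3 of 9 in the late phase (2 higher, 1 lower) where 7.05% did, and 2 of 9 over the whole process where 18% did. Of all genes, 35.5% rose and 33.7% fell early, 22.5% rose and 22.7% fell late, and 34.8% rose and 36.2% fell over the whole process. Rises over 2-fold were 9.77%, 4.24% and 10.3% of all genes in the 3 comparisons, and falls over 2-fold 7.98%, 2.81% and 7.7%. The median log2 fold change of the 9 genes was 0.30, 0.09 and 0.59 in the 3 comparisons, beside 0.02, -0.01 and -0.02 over all genes tested. The early and late phases share the day 4 samples, and the early phase and whole process share those of day 0.

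**Figure D1:**
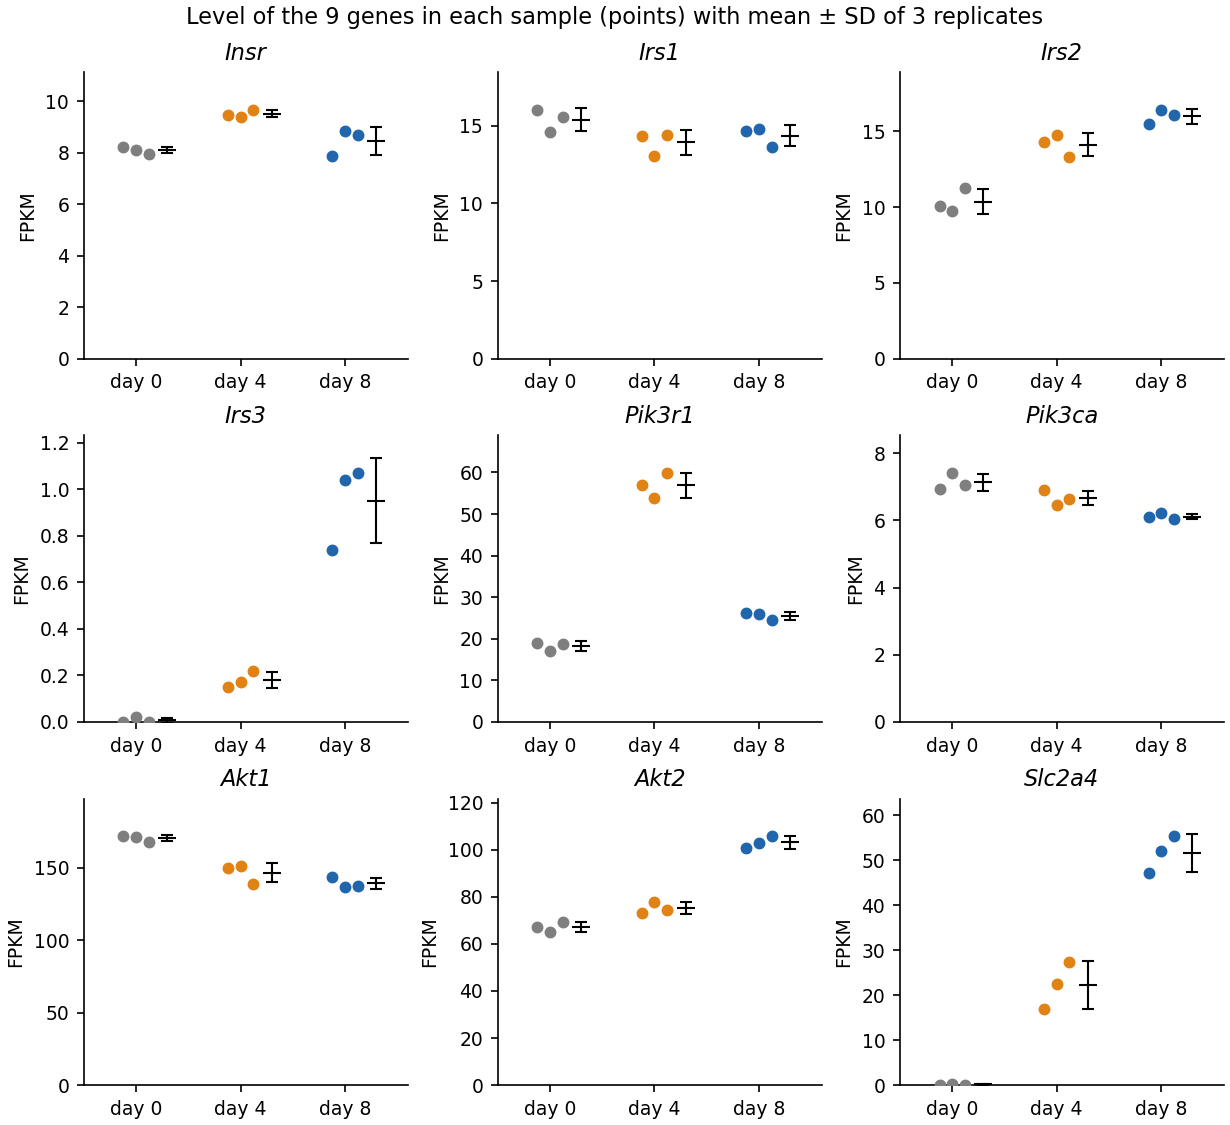
FPKM of the 9 genes in each of the 9 samples by day of differentiation, 1 panel per gene with its own y axis from 0; points are samples, and the bar beside them is the mean ± SD of 3 replicates. Slc2a4 climbs from under 0.3 FPKM at day 0 to between 47.0 and 55.4 at day 8, while Pik3r1 peaks at day 4 between 53.9 and 59.9.

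Compared per length, Akt1 was the most abundant of the 9 at every day and Akt2 the second. At day 0 the order was Akt1, Akt2, Pik3r1, Irs1, Irs2, Insr, Pik3ca, Slc2a4 and Irs3, and no neighbours overlapped in FPKM. By day 4 Slc2a4 had passed Irs1, Irs2 and Insr, and Irs2 and Irs1 next to each other overlapped. At day 8 Slc2a4 was above Pik3r1 too, below only Akt1 and Akt2, and Irs2 was above Irs1 in every sample.

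Insr, which encodes both chains of the receptor, was slightly higher at day 4 than at day 0. It measured 8.22, 8.12 and 7.97 FPKM in the day 0 samples, 9.47, 9.41 and 9.68 at day 4, and 7.86, 8.84 and 8.70 at day 8. All day 4 samples lay above all others, and days 0 and 8 overlapped. The early change was 1.23-fold (log2 fold change 0.30 ± 0.05 SE, edgeR adjusted p = 9.4e-05). The late change of -0.12 ± 0.05 did not pass (adjusted p = 0.067) and passed when samples were scaled to library size alone (adjusted p = 0.012). Without day 8 replicate 1 it was -0.0632 (adjusted p = 0.34). The whole-process value of 0.18 ± 0.05 passed (adjusted p = 0.0071) and was lost under that scaling (0.06, adjusted p = 0.27). A direct test of late minus early change gave -0.42 ± 0.09 (adjusted p = 0.00082), where 56.6% of all genes passed this test.

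Igf1r, the receptor for insulin-like growth factor 1 and the closest relative of Insr in the list, fell in both phases. Its level was 8.30 FPKM at day 0, 5.80 at day 4 and 2.81 at day 8, with log2 fold changes of -0.45 ± 0.06 and -0.998 ± 0.06 (edgeR adjusted p = 3.1e-06 and 2.1e-09). The ratio of Insr to Igf1r, both in FPKM, was 0.976, 1.64 and 3.01 at days 0, 4 and 8. The ratios of the 3 days did not overlap, and an exact permutation test over the 9 samples gave p = 0.00357, the smallest it can give (Benjamini-Hochberg adjusted p = 0.00476 over 4 such ratios).

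The IRS genes each had their own course: Irs1 did not pass the test in any comparison, Irs2 rose in both phases, and Irs3 went from the limit of detection to a low level. The RefSeq promoters of these genes and of Pik3r1 are shown because the IRS genes had unlike courses and Pik3r1 peaked at day 4. Each covers 250 bases before and 50 after the transcription start in build GRCm38.p6, read along the gene, which is on the minus strand in each case. Capitals mark the motif matches. The 4 lie at chr1:82291390-82291689 (Irs1), chr8:11008880-11009179 (Irs2), chr5:137645665-137645964 (Irs3) and chr13:101768168-101768467 (Pik3r1, the upstream of 2 starts in the table).
Irs1: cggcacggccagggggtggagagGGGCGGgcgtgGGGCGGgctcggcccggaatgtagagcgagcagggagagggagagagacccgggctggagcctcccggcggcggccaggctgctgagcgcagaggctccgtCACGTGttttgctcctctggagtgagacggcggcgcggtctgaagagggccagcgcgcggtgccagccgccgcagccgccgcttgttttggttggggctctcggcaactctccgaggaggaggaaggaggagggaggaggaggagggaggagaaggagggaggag
Irs2: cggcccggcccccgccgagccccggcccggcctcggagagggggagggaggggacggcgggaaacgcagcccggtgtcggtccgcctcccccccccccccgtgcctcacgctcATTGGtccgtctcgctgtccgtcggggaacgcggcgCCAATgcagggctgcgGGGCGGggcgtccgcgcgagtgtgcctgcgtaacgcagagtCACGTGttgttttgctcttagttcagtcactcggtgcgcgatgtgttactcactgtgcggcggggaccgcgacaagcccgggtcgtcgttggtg
Irs3: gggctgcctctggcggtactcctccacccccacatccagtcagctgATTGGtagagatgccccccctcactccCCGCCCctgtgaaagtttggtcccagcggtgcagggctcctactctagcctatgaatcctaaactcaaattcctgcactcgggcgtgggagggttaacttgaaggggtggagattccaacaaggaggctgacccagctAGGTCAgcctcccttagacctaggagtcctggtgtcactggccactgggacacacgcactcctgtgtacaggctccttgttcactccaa
Pik3r1: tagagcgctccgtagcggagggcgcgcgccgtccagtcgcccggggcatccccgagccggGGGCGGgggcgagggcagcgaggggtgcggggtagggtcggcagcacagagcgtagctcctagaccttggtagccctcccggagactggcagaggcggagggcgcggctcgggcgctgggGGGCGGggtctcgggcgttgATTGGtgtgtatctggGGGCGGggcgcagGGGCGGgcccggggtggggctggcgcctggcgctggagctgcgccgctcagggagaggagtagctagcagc
The motifs searched, on both strands, were the GC box GGGCGG, the CCAAT motif, the E-box CACGTG, the cyclic AMP response element TGACGTCA, the forkhead motif TGTTTAC, the C/EBP motif TTGCNNAA, the nuclear receptor motif AGGTCA, the glucocorticoid response element and the TATA box TATAAA. Irs1 held 2 GC boxes and an E-box, and Irs2 held a GC box, 2 CCAAT motifs and an E-box. Irs3 held a GC box, a CCAAT motif and a nuclear receptor motif, and Pik3r1 held 4 GC boxes and a CCAAT motif. The downstream Pik3r1 start, not shown, held no GC box and had a GC content of 43.7%. Its only match was to the letters TATAAA, at position -117 from the start and on the strand opposite to the gene. Among all 32851 promoters in the table, 35.7% held a GC box, 37.4% CCAAT, 7.15% the E-box, 16.3% the nuclear receptor motif, 1.79% the cyclic AMP response element, 3.65% the forkhead motif, 10.8% the C/EBP motif, 0.475% the glucocorticoid response element and 13.6% the TATA box. GC content was 71.3% for Irs1, 72% for Irs2, 58.3% for Irs3 and 75.7% for Pik3r1, against a median of 52.7% over all promoters. A match describes the letters in this window and was not tied to a factor.

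Irs1, the main IRS protein of many cell types, measured 16.0, 14.6 and 15.6 FPKM at day 0, 14.3, 13.02 and 14.4 at day 4, and 14.7, 14.8 and 13.6 at day 8. The day 0 samples lay just above those of day 4, and day 8 overlapped both. Its log2 fold changes were -0.08 ± 0.05, 0.09 ± 0.05 and 0.01 ± 0.05 in the early, late and whole comparisons (edgeR adjusted p = 0.20, 0.18 and 0.86). With library size as the only scaling the early value passed (-0.14, adjusted p = 0.027). On the opposite strand, Gm9747 covers 30.9% of the exonic bases of Irs1 in GENCODE, and whether reads were counted by strand is not given in the sources used here, so reads of both genes cannot be told apart.

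Irs2, a substrate that also signals from the insulin receptor, measured 10.1, 9.73 and 11.3 FPKM at day 0, 14.3, 14.7 and 13.3 at day 4, and 15.5, 16.4 and 16.1 at day 8. The 3 days did not overlap. It rose 1.43-fold in the early phase and 1.17-fold in the late phase (log2 fold change 0.51 ± 0.07 and 0.22 ± 0.06, edgeR adjusted p = 3.1e-06 and 0.0085), and 1.67-fold overall. The late change was smaller than the early one by -0.29 ± 0.11 (adjusted p = 0.036), a difference that lost its call without day 4 replicate 2 (-0.18, adjusted p = 0.27) and without any of 5 other samples.

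Irs3, an IRS gene known from rodent fat cells, was the rarest of the 9 genes. At day 0 only replicate 2 listed it, at 0.02 FPKM from 1 count, and in the other two samples, where it was not listed, it was taken as 0. It was listed at 0.15, 0.17 and 0.22 FPKM at day 4, from 7, 8 and 10 counts, and at 0.74, 1.04 and 1.07 FPKM at day 8, from 35, 49 and 50 counts. No sample of one day overlapped another. Summed over a day, 25 counts at day 4 against 1 at day 0 gave a ratio of 24.5, relative to library size, with an exact 95% interval of 4.01 to 1007, which covers counting error only. Day 8 against day 4, 134 against 25 counts, gave 5.36 (3.48 to 8.58), and in edgeR's test this late rise had an adjusted p of 8.4e-06. Irs3 passed in all 3 comparisons, but a fitted fold change against day 0 depends on the prior count, and so does the size of the late minus early difference. That difference was -1.78 ± 1.06 (edgeR adjusted p = 0.17) and moved with the samples and scale used. It was -3.63 without day 0 replicate 2 (adjusted p = 0.061) and turned to 0.49 (adjusted p = 0.0047) in limma on log2(FPKM + 1).

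As shares of the summed FPKM of the IRS genes, Irs1 went from 59.8% ± 1.71 at day 0 to 49.3% ± 2.52 at day 4 and 45.9% ± 1.61 at day 8 (SD, n = 3). Irs2 went from 40.2% ± 1.70 to 50.03% ± 2.59 and 51.1% ± 1.08. Irs3 reached 3.03% ± 0.566 at day 8, and Irs4 was under 0.04% in every sample.

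Among the PI3-kinase subunits, Pik3r1 rose sharply by day 4 and came most of the way down by day 8, whereas its catalytic partner Pik3ca hardly moved. Pik3r1 encodes p85 alpha and shorter forms, the subunits that bind phosphorylated IRS proteins and hold the catalytic subunit. It measured 19.0, 17.0 and 18.9 FPKM at day 0, 57.1, 53.9 and 59.9 at day 4, and 26.2, 25.95 and 24.4 at day 8. The lowest day 4 sample, at 53.9, was above the highest of any other day, at 26.2, and day 8 lay above day 0 without overlap. The early rise was 3.25-fold (log2 fold change 1.70 ± 0.06, edgeR adjusted p = 1.6e-13), the late fall 2.16-fold (-1.11 ± 0.05, adjusted p = 1.5e-10), and day 8 was still 1.51-fold above day 0 (0.59 ± 0.06, adjusted p = 7.5e-08). The late change differed from the early one by -2.81 ± 0.09 (adjusted p = 3.1e-13). The table holds 1 value per gene, so the p85 alpha form and the shorter forms were not told apart.

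Pik3ca, the p110 alpha catalytic subunit, measured 6.94, 7.42 and 7.06 FPKM at day 0, 6.90, 6.47 and 6.65 at day 4, and 6.10, 6.21 and 6.04 at day 8. Each day lay a little under the one before without overlap in FPKM. No edgeR comparison passed, with log2 fold changes of -0.03 ± 0.05, -0.08 ± 0.05 and -0.11 ± 0.05 (adjusted p = 0.60, 0.20 and 0.056). The whole-process value passed with library size as the only scaling (-0.22, adjusted p = 0.00091), a scaling that also shifted the median of all genes in that comparison by -0.11, and without day 4 replicate 1 (-0.11, adjusted p just under 0.05).

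The ratio of Pik3r1 to Pik3ca was 2.56, 8.53 and 4.17 at days 0, 4 and 8 in FPKM, with no overlap between days (exact permutation p = 0.00357, the smallest possible, adjusted p = 0.00476). Among regulatory subunits of class IA, Pik3r2 (p85 beta) was the most abundant at 108, 124 and 152 FPKM and rose in both phases (0.26 ± 0.06 and 0.34 ± 0.06, edgeR adjusted p = 0.0014 and 3e-04). The share of Pik3r1 in their summed FPKM was 12.98% ± 0.396, 30.2% ± 1.63 and 13.8% ± 0.389. Pik3r3 fell from 14.5 to 7.87 FPKM in the early phase (-0.82 ± 0.06, adjusted p = 3.5e-09), with 23.2% of its 50-base stretches shared with another gene model, Gm49337, so that its counts are uncertain. Pik3cd, the p110 delta subunit best known from white blood cells, fell from 2.21 to 0.657 FPKM (-1.68 ± 0.15, adjusted p = 5.7e-08), and the share of Pik3ca among the catalytic subunits was 63.0%, 76.7% and 72.7%. Pik3r5, a regulatory subunit of the class IB enzyme, fell in both phases (-0.49 ± 0.14 and -0.69 ± 0.15, adjusted p = 0.0046 and 0.0016), and of the 5 further class I subunits tested 1 rose and 4 fell early, while 2 rose and 1 fell late. Among all genes tested 35.5% rose and 33.7% fell early, and 22.5% rose and 22.7% fell late.

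**Figure D2:**
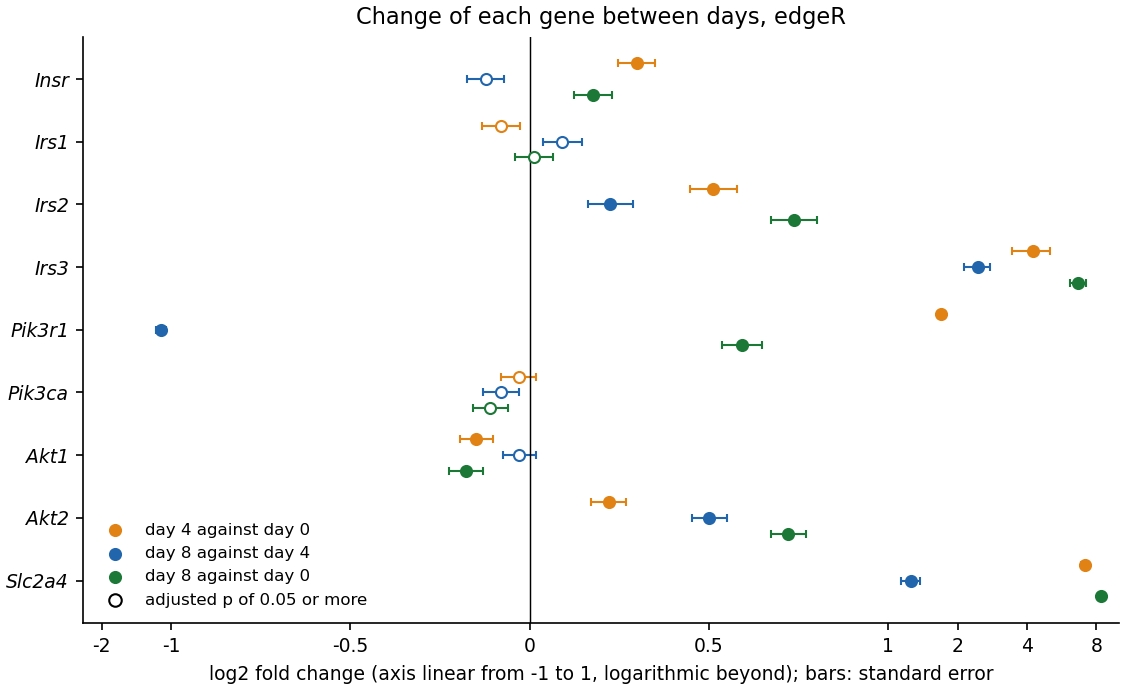
Log2 fold change of each gene between days from edgeR, with the standard error as a bar, on an axis that is linear from -1 to 1 and logarithmic beyond; open points have an adjusted p of 0.05 or more. Slc2a4 and Irs3 lie far to the right in the early phase, Pik3r1 changes sign between phases, and the fitted Irs3 values against day 0 depend on the prior count.

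The Akt kinases shifted from Akt1 towards Akt2. Akt1, the isoform tied to growth and survival in most cells, measured 172, 171 and 168 FPKM at day 0, 149.8, 151 and 139 at day 4, and 144, 137 and 137 at day 8. All day 0 samples were above the rest, and days 4 and 8 overlapped. It fell by 0.15 ± 0.05 on the log2 scale in the early phase (edgeR adjusted p = 0.0097) and by 0.18 ± 0.05 over the whole process (adjusted p = 0.0028), and its late value of -0.03 ± 0.05 did not pass (adjusted p = 0.64).

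Akt2, the isoform that insulin uses to move GLUT4 in fat and muscle, measured 67.2, 65.1 and 69.2 FPKM at day 0, 73.1, 78.0 and 74.5 at day 4, and 101, 103 and 106 at day 8. The days did not overlap. It rose 1.17-fold early (log2 fold change 0.22 ± 0.05, edgeR adjusted p = 0.00077), 1.41-fold late (0.50 ± 0.05, adjusted p = 4.1e-07) and 1.65-fold over the whole process (0.72 ± 0.05, adjusted p = 1.4e-09). The late rise exceeded the early one by 0.28 ± 0.08 (adjusted p = 0.01). A pseudogene, Akt2-ps, shares 9.76% of the 50-base stretches of Akt2 transcripts, so some reads could be split between them.

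The ratio of Akt2 to Akt1 in FPKM was 0.394, 0.513 and 0.740 at days 0, 4 and 8, without overlap (exact permutation p = 0.00357, the smallest possible, adjusted p = 0.00476).

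**Figure D3:**
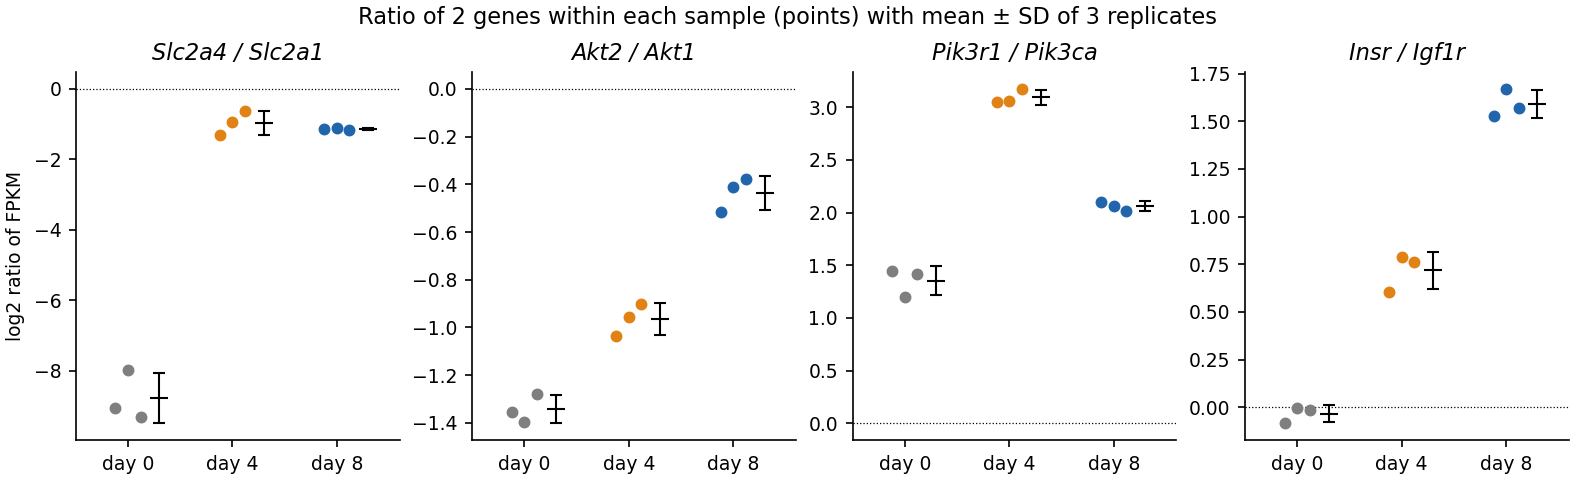
Log2 ratio of the FPKM of 2 genes within each sample by day, 1 panel per ratio with its own y range; points are samples, the bar beside them is the mean ± SD of 3 replicates, and the dotted line marks equal FPKM. Akt2 to Akt1 and Insr to Igf1r climb from day to day, Pik3r1 to Pik3ca peaks at day 4, and Slc2a4 to Slc2a1 overlaps between days 4 and 8.

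Slc2a4 went from near the limit of detection to one of the more abundant of these genes. It measured 0.12, 0.27 and 0.10 FPKM at day 0, from 7, 14.1 and 6 expected counts, then 16.9, 22.6 and 27.3 FPKM at day 4, and 47.0, 52.1 and 55.4 FPKM at day 8. The days were far apart, and the mean at day 4 was 22.3 ± 5.24 FPKM (SD, n = 3). In the same order the day 4 samples had adipocyte marker sums of 6162, 7329 and 8835 FPKM, and the part of that spread in the Slc2a4 values was not tested. The early rise was 142-fold (log2 fold change 7.15 ± 0.26, edgeR adjusted p = 6.9e-13), the late rise 2.39-fold (1.26 ± 0.12, adjusted p = 3.1e-07) and the whole-process rise 340.1-fold (8.41 ± 0.24, adjusted p = 3.7e-14). The early rise was the larger, with a late minus early difference of -5.90 ± 0.36 (adjusted p = 9.9e-10). On log2(FPKM + 1), which compresses low values, the early value was 4.30.

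Slc2a1 encodes GLUT1, the transporter that most cells use for basal glucose uptake, and it remained the most abundant transporter gene at every day. Its level went from 65.4 FPKM at day 0 down to 42.5 at day 4 and up to 113 at day 8 (log2 fold change -0.55 ± 0.06 and 1.45 ± 0.06, edgeR adjusted p = 8e-07 and 3.2e-11). The Slc2a4 to Slc2a1 ratio in FPKM was 0.00226, 0.513 and 0.458 at days 0, 4 and 8 (exact permutation p = 0.0214, adjusted p = 0.0214), with days 4 and 8 overlapping. Slc2a4 therefore held a similar share of the summed transporter FPKM at day 4 and day 8, 25.1% ± 4.50 and 27.0% ± 0.417, after 0.190% ± 0.102 at day 0. The sum itself was 85.0 ± 2.70, 88.0 ± 5.36 and 190.8 ± 15.4 FPKM. Of 6 transporter genes tested besides Slc2a4, with Slc2a1 among them, 3 rose and 3 fell early, and 3 rose and none fell late. Among all genes tested the shares were 35.5% and 33.7% early, and 22.5% and 22.7% late. The others include Slc2a13, a transporter of myo-inositol, at 0.747, 2.59 and 2.11 FPKM (early 1.86 ± 0.14, edgeR adjusted p = 6.7e-09), and Slc2a8, an intracellular transporter (0.24 ± 0.08 and 0.46 ± 0.08, adjusted p = 0.019 and 0.00021).

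**Figure D4:**
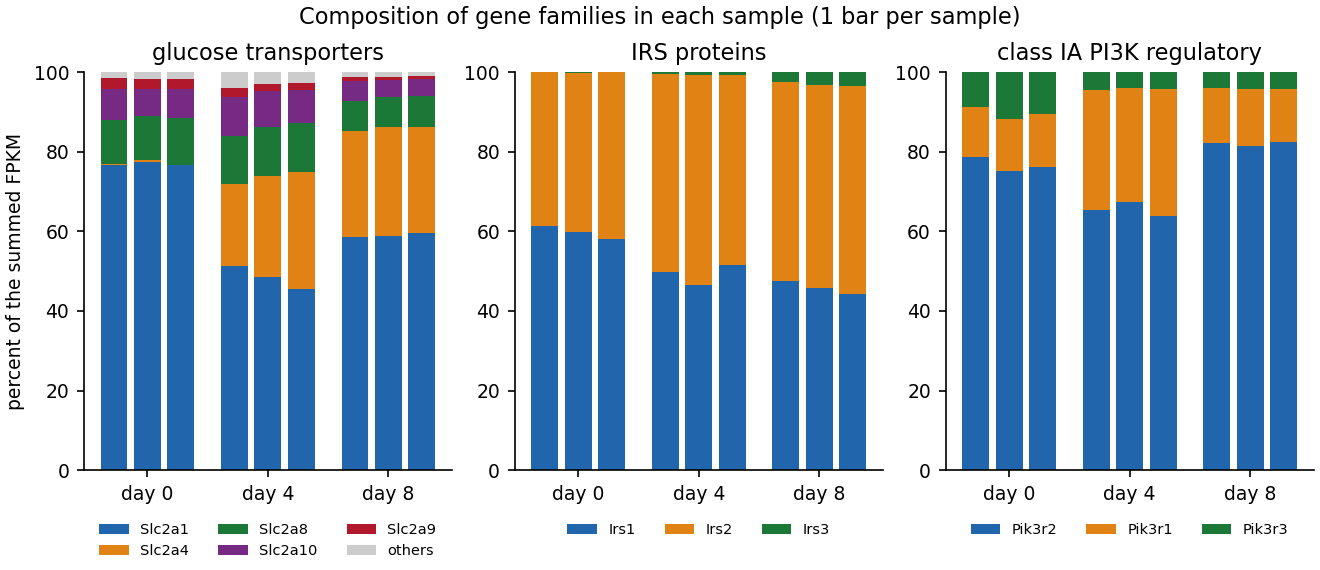
Share of each gene in the summed FPKM of its family, in percent, with 1 stacked bar per sample grouped by day, for glucose transporters, IRS genes and class IA PI3-kinase regulatory subunits; the rarest transporters are summed as others. On average Slc2a4 goes from 0.190% to 25.1% and 27.0% of the transporters, and Pik3r1 from 12.98% to 30.2% and 13.8% of the regulatory subunits.

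Of 107 further genes of the pathway in a list, 96 were tested, and 42 rose and 35 fell in the early phase, which together is 80.2% of them against 69.2% of all genes. In the late phase 28 rose and 27 fell (57.3%, against 45.3% of all genes). Over the whole process 36 rose and 34 fell (72.9%, against 71% of all genes). The 11 that did not pass the filter on low counts were Insrr, Irs4, Pik3cg, Pik3r6, Grb10, Doc2b, Slc2a2, Slc2a3, Slc2a5, Slc2a7 and Slc2a12. The genes that passed thus moved in both directions in about equal number, as did all genes tested. Of all genes, 35.5% rose and 33.7% fell early, 22.5% and 22.7% late, and 34.8% and 36.2% over the whole process. The counts of each list below are to be read beside these shares, and no list was tested against them.

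Of the pathway lists, the regulators of Slc2a4 transcription leaned most to one side in the early phase, with 6 of 7 tested higher and none lower. Their median log2 fold change in that phase was 3.00, beside 0.02 over all genes, and the lean itself was not tested. In the late phase 4 rose and 1 fell. Pparg and Cebpa of this list are also among the adipocyte markers. Cebpa, a transcription factor of fat cell maturation, went from 5.89 to 87.2 and 123 FPKM (3.96 ± 0.11 early and 0.54 ± 0.09 late, edgeR adjusted p = 4.2e-14 and 0.00013). Nr1h3, the sterol sensor LXR alpha, went from 1.96 to 44.9 FPKM (4.56 ± 0.12, adjusted p = 1.7e-14) and was at 47.1 at day 8 (late 0.11 ± 0.08, adjusted p = 0.28). Klf15, a Krüppel-like factor, averaged 0.02 FPKM at day 0, where replicate 1 did not list it (taken as 0) and replicates 2 and 3 had 1 and 2 counts, and stood at 6.15 and 15.7 FPKM at days 4 and 8 from 245 to 315 and 668 to 767 counts.

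Adaptors other than the IRS genes had 8 of 13 higher and 4 lower early, and 4 higher and 3 lower late. Sh2b2, which encodes the adaptor APS that binds the activated insulin receptor, went from 2.85 to 31.8 and 41.8 FPKM (3.57 ± 0.11 early and 0.44 ± 0.08 late, edgeR adjusted p = 5.2e-14 and 0.00025). Gab2, a docking protein, rose from 2.13 to 4.18 and 5.43 FPKM (1.03 ± 0.11 and 0.42 ± 0.10, edgeR adjusted p = 3.3e-07 and 0.0024).

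A list of genes that act at the receptor, with its relatives, its processing enzyme Furin, the phosphatase gene Ptprf and the inhibitor gene Enpp1, had 1 of 5 higher and 4 lower early, and 1 higher and 3 lower late. The late rise was that of Enpp1, from 0.0733 FPKM at day 4 (7 to 15 counts) to 0.293 at day 8 (35 to 44 counts). Enpp1 and Ptprf, which were among the genes lower early, were thus rare, with Ptprf at 0.03 FPKM at day 4 from 3 to 7 counts. Furin, the protease that cuts the receptor precursor, rose and fell back, at 35.7, 55.3 and 33.1 FPKM (0.69 ± 0.06 and -0.69 ± 0.06, edgeR adjusted p = 1.1e-08 and 4.4e-08). Igf2r, which clears insulin-like growth factor 2, fell from 121 to 92.8 and 77.0 FPKM (-0.32 ± 0.08 and -0.22 ± 0.08, adjusted p = 0.0017 and 0.027).

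Rictor, a subunit of the complex that phosphorylates Akt, fell in both phases, at 7.43, 5.10 and 3.51 FPKM (-0.48 ± 0.06 and -0.49 ± 0.06, adjusted p = 2.5e-06 and 9.1e-06). Mtor, the kinase of that complex, did not pass early (0.04, adjusted p = 0.53) and fell late (-0.24, adjusted p = 0.0035). Other subunits of the complex, named after their values were seen, moved otherwise: Mlst8 rose early (0.22 ± 0.07, edgeR adjusted p = 0.0077), and Mapkap1 fell early (-0.24 ± 0.05, adjusted p = 0.00042) and rose late (0.15 ± 0.05, adjusted p = 0.024).

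Among 15 inhibitors tested, 5 rose and 7 fell early, and 4 rose and 6 fell late. Trib3, a pseudokinase that binds Akt, went from 59.0 to 19.8 and back up to 70.5 FPKM (-1.51 ± 0.06 and 1.88 ± 0.06, edgeR adjusted p = 9.7e-13 and 4.3e-13). Grb14, an adaptor that blocks the receptor kinase, fell from 32.0 to 11.3 FPKM and stood at 15.9 at day 8 (-1.43 ± 0.07 and 0.54 ± 0.07, adjusted p = 2.3e-11 and 1.5e-05). Inpp5k, a lipid phosphatase, peaked at day 4, at 8.90, 16.0 and 7.11 FPKM (0.91 ± 0.07 and -1.13 ± 0.07, adjusted p = 8.3e-09 and 3.5e-09).

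Akt substrates and targets had 7 of 16 higher and 3 lower early, 5 higher and 5 lower late, and 9 higher and 5 lower over the whole process. Pde3b, the phosphodiesterase through which insulin restrains fat breakdown, rose in both phases, at 6.82, 16.1 and 24.4 FPKM (1.30 ± 0.07 and 0.64 ± 0.07, edgeR adjusted p = 1.2e-10 and 8.6e-07). Gys1, the glycogen synthase of muscle and fat, did likewise at 26.9, 59.4 and 87.1 FPKM (1.21 ± 0.07 and 0.60 ± 0.06, adjusted p = 1.1e-10 and 1.4e-06). Foxo1, a transcription factor that Akt keeps out of the nucleus, rose early and fell late, at 7.35, 21.6 and 15.9 FPKM (1.62 ± 0.05 and -0.39 ± 0.05, adjusted p = 2.4e-13 and 1.1e-05).

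GLUT4 vesicle traffic genes had 10 of 23 higher and 7 lower early, and 3 higher and 6 lower late. Sort1, a sorting receptor of GLUT4 vesicles, rose in both phases, at 2.53, 23.6 and 32.7 FPKM (3.28 ± 0.11 and 0.52 ± 0.09, edgeR adjusted p = 1.6e-13 and 0.00014). Ralgapa2, a subunit of the RalA GTPase-activating complex that Akt phosphorylates, went from 3.19 to 19.6 and 12.3 FPKM (2.69 ± 0.05 and -0.63 ± 0.05, adjusted p = 4.5e-16 and 1.9e-08). Tbc1d4, the Akt substrate AS160 that holds back GLUT4 vesicles, rose and then fell in the same way, at 2.43, 8.17 and 5.16 FPKM (1.82 ± 0.08 and -0.62 ± 0.07, adjusted p = 3.6e-12 and 2.4e-06).

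**Figure D5:**
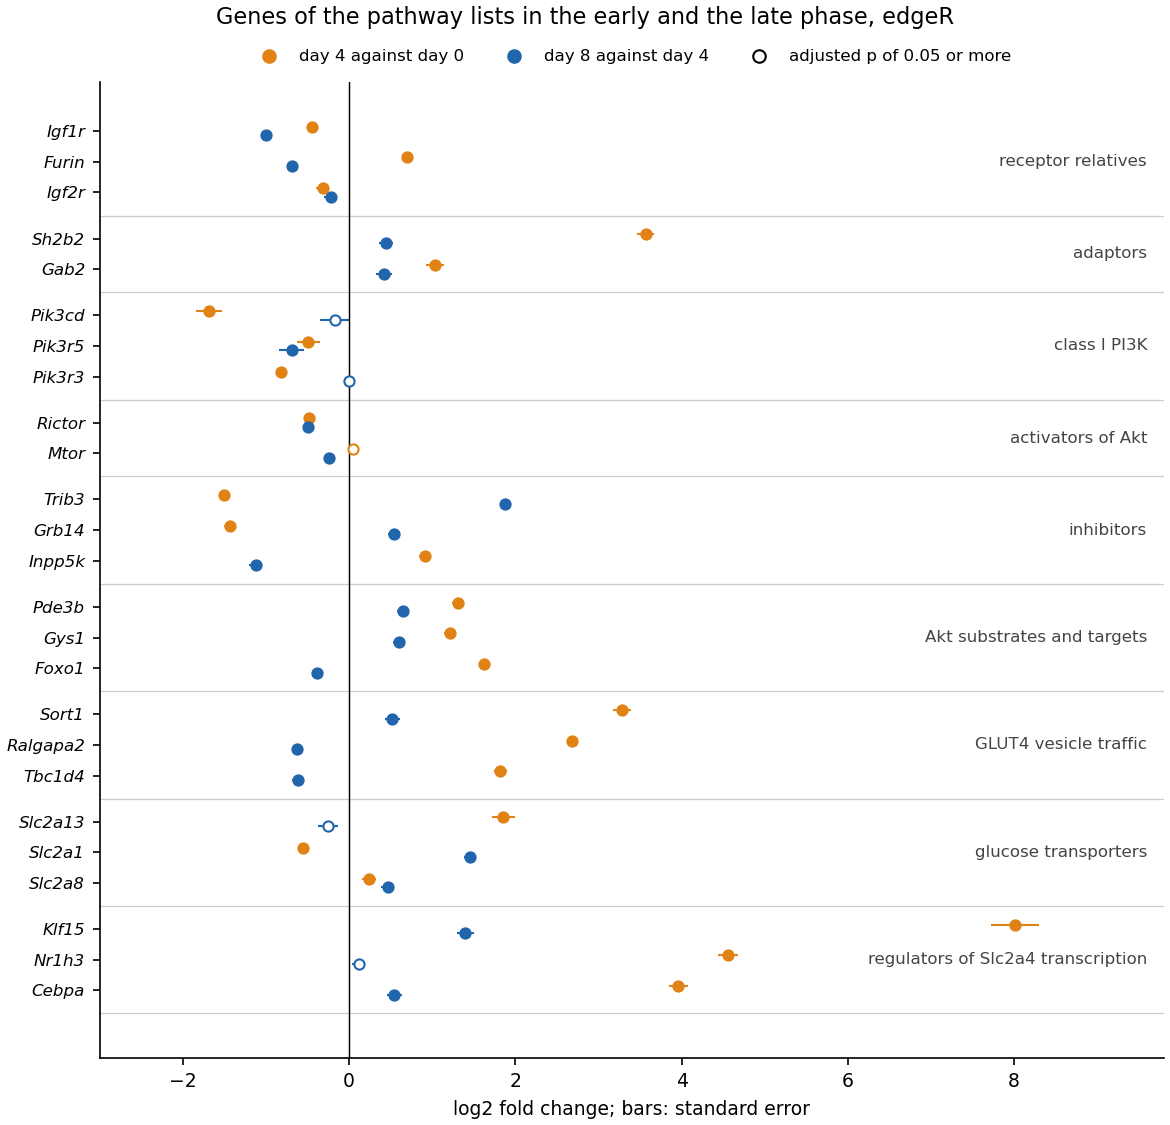
Log2 fold change from edgeR, with its standard error as a bar, of up to 3 genes per pathway list in the early and the late phase; open points have an adjusted p of 0.05 or more. The 3 regulators of Slc2a4 transcription lie furthest to the right in the early phase, Trib3, Grb14 and Inpp5k change sides between phases, and the early Klf15 value rests on 3 day 0 counts and depends on the prior count.

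The genes whose course over the 9 samples was most like that of each member were found by the root mean square difference of centred log2 expression among 11467 genes, as a description. Nearest to Slc2a4 were Rarres2, which encodes the adipokine chemerin (difference 0.296), Lgals12 (0.368) and Klf15 (0.389). Rarres2 went from 1.31 to 142 and 467 FPKM. Nearest to Pik3r1 were Stim1, the calcium sensor of the endoplasmic reticulum (0.0740), Scara5 (0.0757) and the clock gene Per1 (0.0919), which measured 8.41, 27.6 and 11.7 FPKM. Nearest to Irs3 were Odf3l1 (0.275), the growth factor gene Igf2 (0.281), at 2.52, 12.7 and 65.2 FPKM, and Akr1cl (0.296). Akt2 was closest to Stk40 (0.0324), Rcbtb2 and Ugp2, Irs2 to Gmppa (0.0547), Natd1 and Ano10, and Akt1 to Zmym3 (0.0159), Rbm12 and Pxn. The courses of Insr, Irs1 and Pik3ca were nearest to Acp2 and Pagr1a, to Dusp11, Ankib1 and Gpx8, and to Minpp1, Prpf19 and Bud13, respectively.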

How the data were processed

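Poly-adenylated or total RNA selection is not given in the sources used here. The labels' RNA protocol names a BGIseq500 kit and standard Illumina preparation, while the study's methods name paired reads from a HiSeq instrument, cleaning, mapping with HISAT and Bowtie2 and quantification with RSEM. The labels' processing notes list CASAVA 1.4 and Bowtie2. The genome build is not given in the sources used here. The authors deposited 1 table per sample with expected counts (RSEM's estimates, 29.8% of them not whole) and FPKM per gene. A gene not listed in a sample was taken as 0 there. These expected counts were rounded to whole numbers before testing. The deposited FPKM values are normalized for length and depth by the authors and were used for levels, ratios and shares, and the totals behind them are the expected counts given above. The TMM scaling used in the tests was not applied to these FPKM values. The 26 symbols turned into dates by a spreadsheet were restored by gene ID, and 19040 of 19094 IDs matched the RefSeq gene table.

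Genes were filtered with filterByExpr by day, scaled by TMM and fitted in edgeR 4.0.16 (R 4.3.3) with 1 coefficient per day over all 9 samples, and 13154 genes were tested with the quasi-likelihood F-test and Benjamini-Hochberg adjustment. The standard error is the log2 fold change divided by the square root of F. The study named NOIseq and PossionDis for changed genes and, in its statistics, an exact test with dispersions shrunk across genes. The quasi-likelihood test was used here because the values are counts with replicates, with the study's thresholds of an adjusted p of 0.05 and 2-fold. Log2 ratios of FPKM within samples were compared by an exact permutation test of the F statistic, one-sided by nature, with adjustment over 4 ratios. Alternatives were RLE scaling, library size alone, no filter, DESeq2 1.42.0, edgeR's exact test, limma 3.58.1 on log2(FPKM + 1) and log2(FPKM + 0.1), separate fits, a replicate block and leaving out each sample.

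The 9 genes and the lists were chosen with earlier results of these data known. Of each pathway list the text names up to 3 genes with the largest absolute log2 fold change among those with an adjusted p under 0.05 and an average log2 CPM of at least 1, with the partner genes of the ratios and the PI3-kinase and Akt families. Some genes that these rules pick are not reported here. Promoters came from RefSeq (GRCm38.p6), where 7 of the 9 genes matched, and Slc2a4 and Insr are named only. Gene models that share sequence or overlap were taken from GENCODE. Replicates of a day differed by more than counting noise, and none were merged.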

Additional observations from a re-analysis of the deposited data

How the results depend on the processing

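Over 20 alternative settings, 808 of 839 values for 49 results kept their direction and their side of the threshold. With library size alone, Insr gave -0.17 (late, adjusted p = 0.012) and 0.0641 (whole, 0.27), Irs1 -0.14 (early, 0.027) and -0.0994 (whole, 0.11), and Pik3ca -0.22 (whole, 0.00091). This scaling shifted the median of all genes by -0.11 over the whole process. Limma on log2(FPKM + 1) gave Insr -0.15 (late, 0.043) and 0.0550 (whole, 0.39), Irs1 -0.0929 (whole, 0.17), Pik3ca -0.19 (whole, 0.0077), Irs2 -0.24 (late minus early, 0.072), Irs3 0.49 (late minus early, 0.0047), and 2, 2 and 1 genes over 2-fold in the early, late and whole comparisons, where edgeR's main test gave 3, 3 and 2. With 0.1 added in place of 1 the values, in the same order of genes, were -0.17 (0.043) and 0.0608 (0.39), -0.0985 (0.17), -0.22 (0.0077), -0.26 (0.067) and 0.51 (0.24). Late minus early for Irs2 was -0.27 with RLE scaling (0.052) and with DESeq2 (0.072). Leaving out 1 sample at a time, it ranged from -0.38 to -0.18 (not past the threshold without day 0 replicates 1 or 2, day 4 replicates 1 or 2, or day 8 replicates 1 or 3), Irs1 over the whole process from -0.0301 to 0.0586 (below 0 without day 0 replicate 2 or day 8 replicate 2), Akt1 in the late phase from -0.0689 to 0.0247 (above 0 without day 4 replicate 2), Pik3ca over the whole process from -0.128 to -0.0872, Insr in the late phase from -0.15 to -0.0632, and late minus early for Irs3 from -3.63 to -1.31. The causes were not tested. In the separate early fit Irs3 did not pass the filter, so 6 genes passed, 2 of them over 2-fold. The ratio of Irs3 to Irs1 was not run, since Irs3 was not listed in 2 day 0 samples and was taken as 0 there.

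The labels do not say whether replicate numbers pair the samples, and the data do not settle it. Correlations of deviations between same-numbered samples went from -0.0376 to 0.139, with a mean of 0.0632 against -0.0318 for different numbers. Of the 9 samples 8, not all, correlated best with one of their own number, a hint from the data and not the design. With the replicate block the counts of the 9 genes that passed stayed at 7, 5 and 7, those of the pathway list were 79, 53 and 70 (77, 55 and 70 without it), and the Slc2a4 to Slc2a1 ratio (log2 difference of day 8 from day 0 of 7.66) had an exact permutation adjusted p of 0.083. Depth limits Irs3 and Klf15 at day 0, where no sample listed more than 2 counts.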
